A study of Mus musculus with 6 samples.

Results

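Alternative 3′ ends that lie close together were examined as one class of the alternative RNA events on a splicing-sensitive mouse array. An event was included when the deposited table annotates it as an alternative end and its listed position covers no more than 10000 bases. This held for 1005 events in 940 genes, of 2530 alternative ends and 13002 events of every type in the table. Brain RNA came from 6 mice of a B6.CAST congenic line, 3 homozygous for the CAST allele of *Nxf1* (*Nxf1* CAST) and 3 homozygous for the B6 allele (*Nxf1* B6). All animals share the B6 background, and the *Nxf1* CAST animals also carry CAST sequence in the genes that flank *Nxf1* on chromosome 19, so that an effect of *Nxf1* and of its neighbours cannot be told apart in this line. The animals formed 3 same-sex littermate pairs of opposite genotype. Ages were 46 days in one female pair and 23 days in the other. The males were 22 (*Nxf1* B6) and 23 days old (*Nxf1* CAST). One Affymetrix MJAY array, which carries probe sets for the exons and junctions of each path of an event, was hybridized per animal.

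Most mouse genes can end their transcripts at more than one place. When the alternative ends lie in different last exons, splicing and cleavage with polyadenylation compete, since using an internal end requires that the intron around it is not removed first. When the choice moves the stop codon the protein changes, and when it moves only the polyadenylation site the change is confined to the untranslated tail. Brain is known for long, distal tails. Nxf1 is the major receptor that carries finished mRNA out of the nucleus, and the arrays were run to ask whether its alleles alter RNA processing choices broadly.

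For every event the table gives the pooled intensity of the probes for the exclusion path and of those for the inclusion path, once for a set A and once for a set B. The sets are not named by genotype. From the definition of the score in the header and the study's Methods, set B was likely *Nxf1* CAST and set A *Nxf1* B6. The isoform shift used throughout is the log2 ratio of exclusion to inclusion intensity in set B minus the same log2 ratio in set A. A shift above 0 therefore stands for relatively more of the exclusion path in set B. Both paths of each alternative end carry the same position, so neither could be named as the nearer or the farther end. Because the table holds 1 pooled number per path and set, no spread between animals and no test could be computed for any event, and with so few arrays the precision of each value is limited. Statements below on size compare pooled values with the threshold of 0.5, which is 1.41-fold, and with the table as a whole.

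The only one of these close ends that the study also assayed by gel was in *Klf5*, a Krüppel-like zinc finger transcription factor. Its event covers 9933 bases on the plus strand of chromosome 14. The assay was a competitive PCR with 3 primers that amplifies both products in 1 tube, and the primers are shown because they are the designed probe of this choice.
Klf5 primer 1: gccagttaattcgccaactc
Klf5 primer 2: aggatgaatgccgcttacac
Klf5 primer 3: tcccaggtgcacttgtagg
On the arrays *Klf5* gave 519 for exclusion in set A against 365 in set B, and 196 against 180 for inclusion. Both were lower in set B, the exclusion path by more. The shift was -0.39, inside the threshold of 0.5. The study designed such assays for the most extreme of its own array scores, which were not used here. It reported no nominally significant allele difference in any assay at unlinked sites without an intracisternal A particle insertion. Its text does not name *Klf5*, which lies on chromosome 14.

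Values were given for 1002 of the 1005 close ends. The other 3 events, in *2700007P21Rik*, *Grin1* and uc008odv-1, have none. The ends covered 407 to 9999 bases with a median of 5104, and 538 lay on the minus and 467 on the plus strand. A single such event was listed for 880 genes, 2 for 55 genes and 3 for 5 genes, and 638 of the events belonged to genes with a further event of another kind or span on the array. Median exclusion intensities were 335.5 (set A) and 333 (set B), and median inclusion intensities 224 and 216. Over all listed paths, 10% of the intensities were below 102, and 801 of the ends had all 4 intensities at or above that level, called adequate signal from here on. Listed markers of neurons, such as *Snap25* and *Syt1*, had summed intensities from 3215 to 20035 in set A and from 2993 to 19107 in set B (7 of 13 listed genes on the array), and those of oligodendrocytes, such as *Mbp* and *Mag*, from 1581 to 13379 and from 1705 to 12454 (4 of 10). Those of astrocytes ran from 671 to 12338 and from 602 to 12506 (7 of 9). Those of other possible sources of RNA ran from 269 to 839 and from 276 to 968 for microglia (4 of 10) and from 244 to 1147 and from 298 to 1038 for endothelium (2 of 8), with 495 and 463 for *Folr1* of choroid plexus and 294 and 332 for *Alas2* of red blood cells. Levels of different probes cannot be ranked against each other. No marker event differed between the sets by more than 0.29 on the log2 scale.

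Close alternative ends differed little between the sets. The median absolute shift was 0.14, against 0.17 over all 12553 events with values, and 36.1% of the ends had a shift of less than 0.1 in either direction, against 30.4% of all events. A shift past 0.5 in either direction was found in 36 ends, 3.59% of the 1002, and in 7.24% of all events. The share among the ends was below the background of the table. That difference was not tested. Of the 36, 23 lay above 0.5 (4.52% of all events did) and 13 below -0.5 (2.72% of all events). This split rests on the zero point: with the median shift of all events, 0.03, subtracted, 20 ends lay above and 21 below. Close ends and distant ends, those covering more than 10 kb, were alike in the middle of the distribution, with a median absolute shift of 0.14 in both, and 34 of 1520 distant ends (2.24%) passed 0.5. Alternative starts of the same span had a median absolute shift of 0.17, and 57 of 952 (5.99%) passed. No close end passed an absolute shift of 1. The most shifted one reached 0.76, while distant ends reached 1.56 and alternative starts 1.17.

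**Figure D1:**
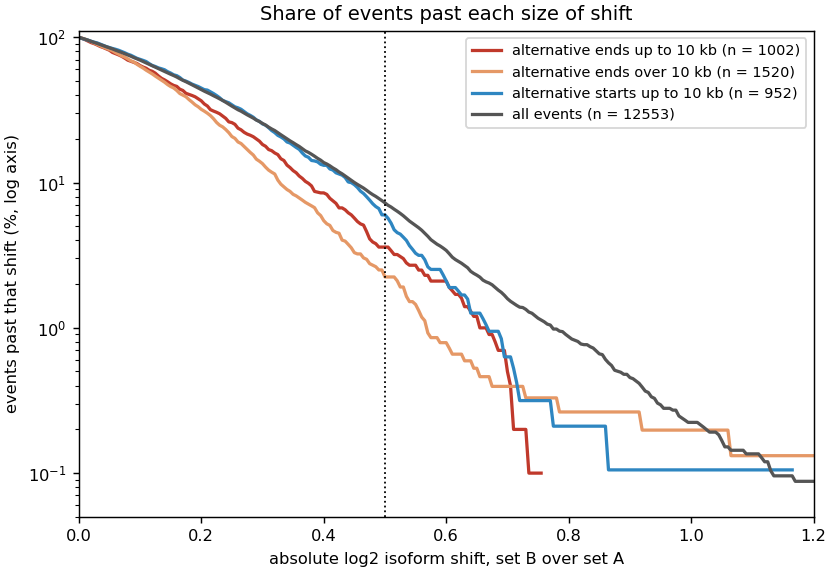
Share of events (%, log axis) whose absolute log2 isoform shift between set B and set A exceeds the value on the horizontal axis, for close alternative ends, distant alternative ends, alternative starts of the same span and all events; the dotted line marks 0.5. At 0.5 the curves stand at 3.59%, 2.24%, 5.99% and 7.24%, and the curve of the close ends stops at 0.76.

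Because the limit of 10 kb is a matter of definition, the ends on either side of it are given. The 3 longest inside were *Zfr2* (9948 bases, shift -0.40), *Isl1*, a LIM homeodomain transcription factor (9994 bases, -0.27), and the F-box gene *Fbxw10* (9999 bases, -0.37). The 3 shortest outside were *Eif4g3*, a translation initiation scaffold (10008 bases, 0.13), *Clstn2*, a synaptic cadherin-like protein (10019 bases, 0.26), and uc009hgf-1 (10028 bases, 0.19). Within the class, span had no steady relation to the median absolute shift, which was 0.14 in each of the 3 bins up to 7362 bases and 0.16 from 7371 bases up. Ends past 0.5 were spread less evenly, with 11 of 252, 14 of 249, 9 of 250 and 2 of 251 from the shortest to the longest bin. Signal also differed among the shifted ends. When the ends were divided into 4 bins by the lowest of their intensities, 13 of 256 in the dimmest bin (up to 112) passed 0.5, then 11 of 250, 5 of 247 and 7 of 249. The part of low signal in these shifts was not tested. By strand, 19 of 467 on the plus and 17 of 535 on the minus strand passed. These counts by span, signal and strand were not made for all events. No pattern particular to close ends is therefore read from them.

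The intensities themselves show which path differed. In 31 of the 36 shifted ends the exclusion and inclusion intensities lay on opposite sides of no difference, and in 8 both differed by more than 0.25. Choosing ends by the difference between the paths favours opposite sides. The same count was not made for other events, so no conclusion is drawn from it. The exclusion path differed more in 19 and the inclusion path in 17. Over all 1002 ends, the exclusion intensity differed by more than 0.5 in 12 (1.2%, against 5.05% of all events) and the inclusion intensity in 15 (1.5%, against 1.63%). The share on the exclusion path was below that of the table, while the share on the inclusion path was near it. All events include exclusion paths of every event type. The same shares were not computed for distant ends or alternative starts, so a trait particular to close ends is not shown. The sum of both intensities, a rough measure of the RNA of the event, differed by more than 0.5 in 3 ends (0.299%, against 0.836% of all events). Its median difference was -0.05 for close ends, -0.04 for distant ends and 0.08 for alternative starts up to 10 kb, against 0.00 for all events. Both paths went the same way within a class, with medians of -0.03 (exclusion) and -0.06 (inclusion) for close ends. For alternative starts up to 10 kb both were 0.09. Normalization of the arrays is not given, and the part of processing in these medians was not tested. In whole brain, RNA per cell and the number of cells with the transcript also cannot be told apart.

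**Figure D2:**
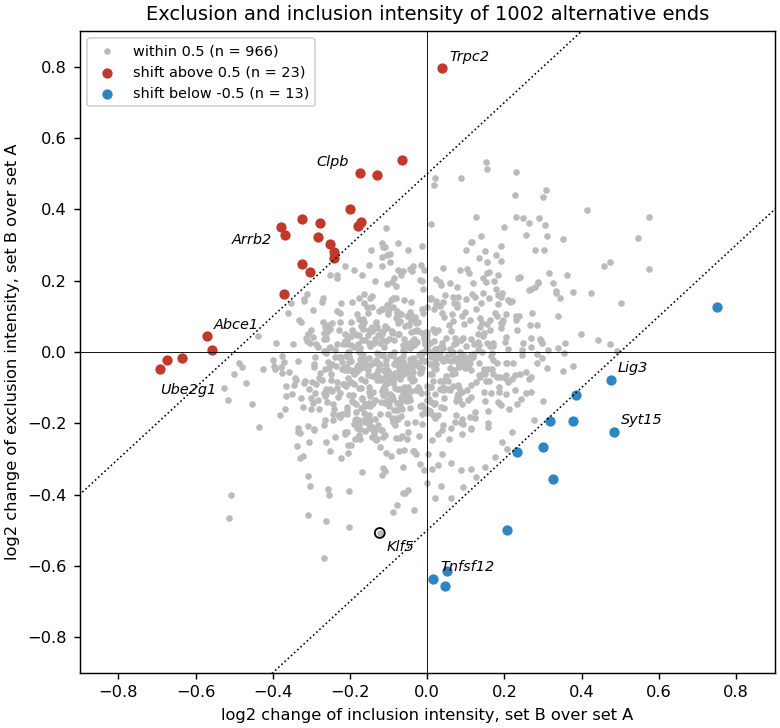
Log2 difference between set B and set A of the exclusion intensity (vertical) against that of the inclusion intensity (horizontal) for 1002 close alternative ends, 1 point each; red points have a shift above 0.5 (23), blue points below -0.5 (13), the dotted lines are shifts of 0.5 and -0.5, and the black ring is Klf5. Of the 36 coloured points, 31 lie in the quadrants where both paths differ in opposite directions, which the choice of points by their shift favours.

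The end with the highest shift was in *Trpc2*, a cation channel of the TRP family that carries pheromone signals in vomeronasal neurons. This event (chromosome 7, 109231532 to 109232374, plus strand, 843 bases; the assembly is not stated in the table) gave 767 for exclusion in set A against 1333 in set B. For inclusion it gave 183 and 188. The exclusion path alone was therefore 1.74-fold brighter in set B and the shift was 0.76. It was also the end whose summed intensity differed most, by 0.68. A second close end of *Trpc2*, 2970 bases long and upstream of the first, was in the same direction but within the threshold, with 281 and 329 for exclusion, 224 and 218 for inclusion and a shift of 0.27.

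The array holds 4 further *Trpc2* events of other types, which allow the gene to be followed along its length. The first, a complex event, had exclusion intensities of 150 and 142 and a shift of -0.01. In the 5 events downstream of it the exclusion intensity was higher in set B, by 0.23 to 0.80, while the inclusion intensity differed by -0.11 to 0.04. Their shifts were 0.53 for an alternative 5′ splice site, 0.27 for the longer end, 0.30 for a complex event, 0.42 for a cassette exon that shares its last base with the shifted end, and 0.76 for the shifted end. The last 4 events overlap or adjoin and may share probes, so they are not separate measurements of 1 difference.

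**Figure D3:**
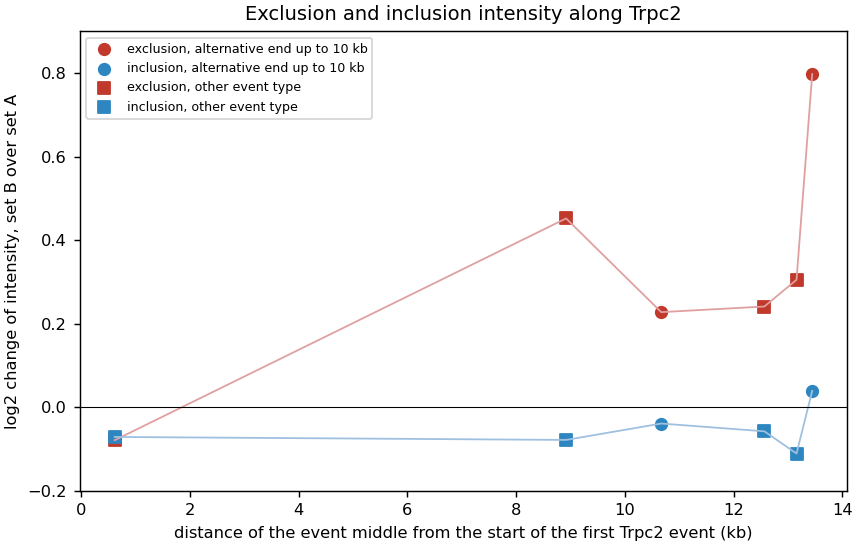
Log2 difference between set B and set A of the exclusion (red) and inclusion (blue) intensity of the 6 Trpc2 events, placed by the distance in kb of their middle from the start of the first event; circles are close alternative ends and squares other event types. From the second event on, the exclusion values lie between 0.23 and 0.80 and the inclusion values between -0.11 and 0.04.

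Among the other ends with high shifts, some differed on both paths. *Arrb2*, which encodes beta-arrestin 2, a brake and scaffold of G protein-coupled receptors, had the second highest shift with adequate signal, 0.70, in an event of 554 bases (chromosome 11, 70253777 to 70254330, plus strand). Exclusion gave 243 in set A against 305 in set B, and inclusion 195 against 151. In *Mapk8ip3*, the scaffold JIP3 of the JNK pathway and of axonal transport, exclusion was 320 and 411, inclusion was 508 and 419, and the shift was 0.64. In *Zfp710*, a zinc finger gene, exclusion was 191 and 239, inclusion was 253 and 208, and the shift was 0.61. In these 3 ends the sum of both paths hardly differed, by at most 0.06 on the log2 scale.

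A second group differed mainly on the exclusion path, as *Trpc2* did. In *Clpb*, an AAA+ disaggregase of mitochondria, exclusion gave 284 in set A against 402 in set B, inclusion 482 against 427, and the shift was 0.68. In *Tcte2*, a gene of the t-complex, exclusion was 311 and 439, inclusion was 299 and 273, and the shift was 0.63. In *2210010C17Rik*, listed by RefSeq as *Igsf23*, exclusion was 432 and 627, inclusion was 159 and 152, and the shift was 0.60. Their exclusion intensities were higher in set B by 0.50, 0.50 and 0.54 on the log2 scale.

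Another group kept the exclusion path and was dimmer on the inclusion path in set B. *Ube2g1*, a ubiquitin-conjugating enzyme, had 3132 for exclusion in set A against 3032 in set B, and 176 against 109 for inclusion. Its shift was 0.64 (chromosome 11, 72492974 to 72499662, plus strand). In *Abce1*, which splits ribosomes for recycling, exclusion was 1890 and 1948, inclusion was 416 and 280, and the shift was 0.61. In uc008eme-1, a transcript named only by its UCSC identifier, exclusion was 137 and 135, inclusion was 786 and 493, and the shift was 0.65. The sums of both intensities differed by -0.07 in *Ube2g1*, -0.05 in *Abce1* and -0.56 in uc008eme-1.

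On the other side, the lowest shift among ends with adequate signal was in *Syt15*, a member of the synaptotagmin family of C2 domain proteins. Exclusion gave 181 in set A against 155 in set B, inclusion 138 against 193, and the shift was -0.71 (chromosome 14, 35040367 to 35043607, plus strand). Both paths differed, in opposite directions. They did so too in *Them4*, an acyl-CoA thioesterase, with 244 and 203 for exclusion, 204 and 251 for inclusion and a shift of -0.56. In *Tnfsf12*, the cytokine TWEAK, exclusion was 331 and 213, inclusion was 287 and 290, and the shift was -0.65. There the exclusion path was 1.55-fold dimmer in set B and the inclusion path was level.

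*Lig3*, a DNA ligase of nuclear and mitochondrial repair, showed the converse. Exclusion gave 343 in set A against 325 in set B, while inclusion gave 1139 and 1584, 1.39-fold brighter in set B, and the shift was -0.55. *Cacnb1*, the beta 1 subunit of voltage-gated calcium channels, had 1628 and 1424 for exclusion, 157 and 204 for inclusion and a shift of -0.57. *Letm2*, a relative of the mitochondrial inner membrane protein Letm1, had 358 and 295 for exclusion, 142 and 167 for inclusion and a shift of -0.51. These 6 genes are the only ends with adequate signal below -0.5. The next 4 lay within the threshold, namely *4931440B09Rik*, listed by RefSeq as the serine protease *Prss41* (-0.48), the melastatin channel *Trpm1* (-0.48), the tubulin carboxypeptidase *Agbl5* (-0.47) and ceruloplasmin, *Cp* (-0.47). In all 4 the exclusion path was dimmer in set B, with 530 against 439, 209 against 164, 343 against 258 and 152 against 117. Their inclusion paths were slightly brighter, with 110 against 127, 131 against 143, 113 against 118 and 149 against 159.

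**Figure D4:**
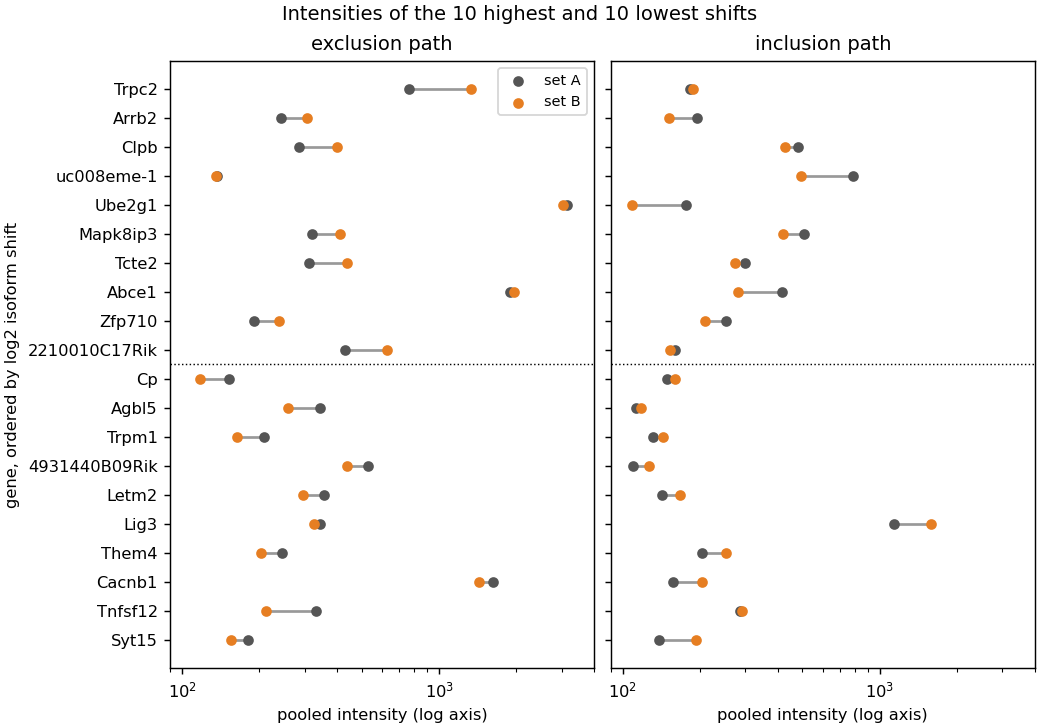
Pooled intensity (log axis) of the exclusion path (left) and the inclusion path (right) in set A (grey) and set B (orange) for the 10 highest and 10 lowest shifts among close ends with all 4 intensities at or above 102; the dotted line separates high from low shifts. Trpc2 differs on the exclusion path only, from 767 to 1333, and Ube2g1 on the inclusion path only, from 176 to 109.

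The minimum on signal left out 12 of the 36 shifted ends, 5 above and 7 below. With it, the share past 0.5 was 3.0% of 801 close ends, against 3.59% without it. Over the table it was 6.4% of 9792 events, against 7.24%, so a lower share under the minimum was not particular to close ends. The 12 left out include *Slc10a1*, the bile acid carrier of liver (exclusion 101 in set A and 66 in set B, inclusion 82 and 85, shift -0.67). *Pla2g1b*, a pancreatic phospholipase, had 121 and 132, then 63 and 106, and a shift of -0.63. *Car3*, a carbonic anhydrase of muscle and fat, had 251 and 196, then 75 and 94, and a shift of -0.68. *Cenpk*, a centromere protein, had 74 and 68, then 72 and 94, and a shift of -0.51. Among those above 0.5, *Ephb4*, a receptor for ephrin B2 of blood vessels, reached 0.73 with intensities of 76 and 97 for exclusion and 117 and 90 for inclusion. For *Nfkbib*, an inhibitor of NF-kappaB, only the exclusion path was dim (92 and 91), while inclusion gave 1234 in set A against 794 in set B and the shift was 0.62. The rest of the 12 were *Slc4a7* (-0.70), *5830415F09Rik* (-0.71), *Dbf4* (-0.51), *Hgf* (0.53), *Tsc22d4* (0.53) and *Ppfibp2* (0.70). These clauses on the genes are background, and whether dim shifted ends go with expression outside the brain was not tested. The lowest intensity of any close end was 50.

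Another event of the same gene was measured for 20 of the 36 genes with a shifted end, 36 events in all. Their shifts ran from -0.35 to 0.57, and 19 of the 36 had the sign of the shifted end. Without *Trpc2*, 15 of 31 did. Past 0.5 were the alternative 5′ splice site of *Trpc2* described above and an alternative start of *Tsc22d4*, whose listed region ends at the same base as the shifted end (0.57, with 0.53 for the end). Other genes had no partner past 0.5. Within the threshold, some partners had the sign of the shifted end, such as cassette exons of *Arrb2* (0.34) and *Ube2g1* (0.31), and others did not. The alternative start of *Tnfsf12* had a shift of 0.01, that of *Zfp710* -0.04 and that of *Cacnb1* 0.45, opposite in sign to its end. A second close end of *Letm2*, adjoining the shifted one, had 443 and 444 for exclusion, 713 and 684 for inclusion and a shift of 0.06.

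Neighbouring close ends of a gene could be compared in 65 pairs, 50 of which meet within 25 bases. In 34 of the 65 both shifts had the same sign, and the median absolute difference between the shifts of a pair was 0.24. In *Trpm1* the 3 ends had shifts of -0.33, 0.24 and -0.48 from 5′ to 3′. In *Agbl5* the first and second ends had shifts of 0.05 and -0.05 and the last, which adjoins the second, -0.47. In *Pola2*, a subunit of DNA polymerase alpha on the minus strand, the ends had shifts of -0.02, -0.20 and 0.10 from 5′ to 3′. The 3 ends of *Obsl1*, an obscurin-like cytoskeletal adaptor, were all above 0 (0.13, 0.36 and 0.04), and those of *Pik3r4*, the regulatory subunit of the kinase Vps34, ran from -0.29 to 0.04.

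In the lists of genes that act in RNA processing themselves, 0 of 22 close ends passed 0.5. With 3.59% of all close ends past it, a count of 0 among so few is near the background, and 20 of all 270 events of these lists passed (7.41%). The members of the 3′ end formation list were *Fip1l1*, a subunit of the polyadenylation machinery (0.15), *Papolg*, a poly(A) polymerase (0.06), and *Ssu72*, a phosphatase of the RNA polymerase II tail (0.01), whose exclusion intensity was 1186 in both sets and inclusion intensity 141 and 140. *Thoc7*, a subunit of the THO complex that couples transcription to export and the only member from that list, had 153 and 163 for exclusion, 226 and 200 for inclusion and a shift of 0.27. The 18 ends in RNA-binding protein genes had a median shift of 0.02. The largest was in the cold-inducible *Rbm3* on the X chromosome, with 1622 and 1205 for exclusion, 269 and 255 for inclusion and a shift of -0.35. The splicing regulators *Ptbp2* and *Qk* had intensities of at least 1791 and 3536 and shifts of 0.04 and 0.05. *Calca*, whose alternative ends make calcitonin or the neuropeptide CGRP, had 178 and 181 for exclusion, 111 and 125 for inclusion and a shift of -0.15.

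In the lists of synapse, ion channel, neurotransmitter receptor, solute carrier and kinase or phosphatase genes, 6 of 62 close ends passed 0.5 (9.68%), against 3.59% of all close ends and 7.24% of all events. Over all events of these lists 7.51% passed. One of 7 ends in synaptic genes passed (*Syt15*), and the other shifts ran up to 0.18 in *Homer3*, a postsynaptic scaffold, with *Syn2*, a synaptic vesicle protein, at -0.02 and 0.04. Of 9 ends in ion channel genes 1 lay above and 1 below (*Trpc2* and *Cacnb1*), while *Clcn3*, a chloride transporter of the ClC family, had 0.24. None of 3 ends in neurotransmitter receptor genes passed, and the largest, in the GABA-A receptor subunit *Gabrq*, was -0.37 (184 and 170 for exclusion, 118 and 141 for inclusion). Of 17 ends in solute carrier genes 0 lay above and 2 below, *Slc4a7* (-0.70) and *Slc10a1* (-0.67), both with intensities under 102. The astrocyte glutamate transporter *Slc1a2* had 0.17 and the largest with adequate signal was the glutamine carrier *Slc38a1*, with 2425 and 2324 for exclusion, 198 and 140 for inclusion and a shift of 0.44. Of 26 ends in the kinase and phosphatase list, whose median shift was -0.06, 1 passed. It was *Mapk8ip3*, which matched the list by its name and encodes a scaffold, not a kinase or phosphatase.

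In the remaining lists, 2 of 24 ends in zinc finger genes passed, both above (*Zfp710* and *Zfp92*, 0.54), and 1 of 17 in the ubiquitin pathway did (*Ube2g1*). The ubiquitin genes had the widest typical shift of the lists with more than 10 ends, a median absolute shift of 0.26, with both signs (*Fbxl21* -0.47, *Trim45* 0.41). It was 0.14 for all close ends, 0.17 for all events and 0.27 for the 9 ion channel ends. These differences were not tested. *Tnfsf12* was the only one of 16 immune ends to pass, and their median absolute shift was 0.09. None passed among 17 trafficking ends (largest with adequate signal *Vps26b*, a retromer subunit, 0.35), 14 chromatin ends (*Phf20l1*, 0.38), 11 cytoskeletal ends (*Kif5a*, a neuronal kinesin, 0.22), 9 mitochondrial ends and 4 translation ends (*Rpl7l1*, 0.47). Of the mitochondrial ends, 8 had a shift under 0.1 in either direction, and the other was *Timm8b*, an inner membrane import factor, with 409 and 453 for exclusion, 2339 and 1875 for inclusion and a shift of 0.47. The lists together held 197 of the 1002 ends and 10 of the 36 shifted ones (5.08% of the ends in a list), and 26 of the 805 ends in no list were shifted (3.23%).

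Some ends differed in the sum of both paths more than in their balance. After *Trpc2* and uc008eme-1 the largest difference of the sum with adequate signal was in *Hectd2*, a HECT-type ubiquitin ligase, where exclusion gave 428 in set A against 310 in set B and inclusion 147 against 103. Both paths were lower in set B by nearly the same factor, so the sum differed by -0.48 while the shift was 0.05. *Phf20l1*, a Tudor and PHD finger chromatin protein, had 257 and 234 for exclusion and 1786 and 1249 for inclusion, a sum lower by -0.46. *Crim2*, listed by RefSeq as *Kcp*, a secreted modulator of BMP signalling, had 268 and 315 for exclusion and 357 and 532 for inclusion, a sum higher by 0.44 and a shift of -0.34.

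By chromosome, the share of shifted ends ran from 0 to 8.99%. Chromosome 7 held 8 of 89 ends past 0.5 (8.99%), where 7.41% of all its events passed. All 8 were above 0: *Trpc2*, *Ppfibp2*, *Clpb*, *Nfkbib*, *Zfp710*, *2210010C17Rik*, *Ccdc9* and *9930013L23Rik*. With the median shift of all events subtracted, the same chromosome had 8 above and 1 below, *Trpm1*. The share on chromosome 7 was therefore near the background of that chromosome and of the table, and the other 913 ends had a lower share, 28 (3.07%; 15 above and 13 below). The other events of chromosome 7 went both ways, with 39 above and 26 below. The next highest shares were on chromosomes 18 (2 of 23, 8.70%), 5 (6 of 79, 7.59%), 3 (3 of 42, 7.14%), 14 (2 of 29, 6.90%) and 8 (3 of 48, 6.25%), and chromosome 11 held 5 of 87 (5.75%). Chromosomes 1, 2, 9, 10, 15, 16 and 19, and the single end on Y, had none.

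**Figure D5:**
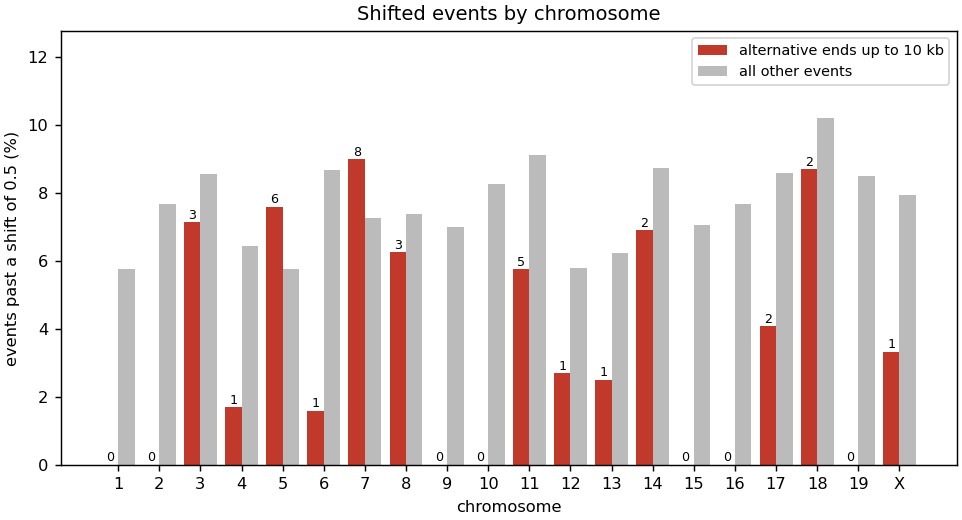
Share of events (%) with an absolute shift past 0.5 on each chromosome, for close alternative ends (red, with their number above the bar) and for all other events (grey). Chromosome 7 has 8 shifted ends (8.99%), while chromosomes 1, 2, 9, 10, 15, 16 and 19 have 0; Y, with 1 end, is not drawn.

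Chromosome 19 was looked at in its own right because it carries *Nxf1* and the CAST segment. Between the outermost array events of *Fkbp2*, *Ganab*, *Tmem138* and *Stx3* (7053631 to 11866235), genes that the study places in the segment, lay 6 close ends. None passed 0.5. With 3.59% of all close ends past it, a count of 0 among 6 is near the background. Of all 70 events in the interval 6 passed, where 7.24% of all events in the table did. The largest shift was in *Taf6l*, a subunit of histone acetyltransferase complexes, with 270 and 300 for exclusion, 143 and 129 for inclusion and a shift of 0.30. *B3gat3*, a glycosaminoglycan linker enzyme, had 1117 and 856 for exclusion and 214 and 179 for inclusion, so both paths were lower in set B and the shift was -0.13. *Rab3il1*, an activator of Rab GTPases, had a shift of -0.17, with 167 and 155 for exclusion and 191 and 199 for inclusion.

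The other 3 ends of the interval belonged to the *Ms4a* cluster of tetraspanning membrane proteins. In *Ms4a6c* exclusion gave 254 in set A against 330 in set B, and inclusion 51 against 76. In *Ms4a1*, the B cell antigen CD20, they were 101 and 131, then 72 and 88, and in *Ms4a8a* 135 and 169, then 119 and 131. All 6 of these intensities were higher in set B, with sums higher by 0.41, 0.34 and 0.24, while the shifts were only -0.20, 0.09 and 0.19. *Ms4a6c* and *Ms4a1*, with lowest intensities of 51 and 72, did not have adequate signal. The sums of *Taf6l*, *Rab3il1* and *B3gat3* differed by 0.05, -0.02 and -0.36. The median absolute difference of the sum was 0.29 for the 6 ends of the interval and 0.09 for the other 996. Sequence differences between CAST and B6 under the probes were not examined, and their part in these sums was not tested.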

How the data were processed

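Total brain RNA of 6 mice was hybridized to Affymetrix MJAY arrays. The authors deposited 1 table with pooled intensity values of the exclusion and inclusion probes for a set A and a set B, as whole numbers, for a paired and a standard comparison. The submitters' processing notes name Affymetrix Power Tools. Normalization, background correction and genome assembly are not given in the sources used here. The deposited separation scores and q-values are the authors' own comparison and were not used. The paired columns were used; wherever both are given, in 26304 of 26514 paths, the standard intensities are identical.

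Paths were joined by event name, and an event took its exclusion path (the first listed where there are several). The span ran from the lowest start to the highest end. Shifts were computed in Python 3.11.15 with numpy 2.4.6 and pandas 2.3.3 and plotted with matplotlib 3.10.9. The script was checked on set A intensities given known differences without noise, which checks the arithmetic only and not the precision of the values. Alternatives were other thresholds, intensity minimums, a centred shift, the other path, 1 event per gene, a shorter span, the standard columns and a wider interval. No test could be made without values per array. The members, lists and thresholds were chosen with earlier results of these data known. Named genes are, among ends with all intensities at or above the 10th percentile, the 10 highest and 10 lowest shifts, the largest shift of each list and the 5 largest differences of the sum; further, the ends of the congenic interval, the gel-assayed end and 3 ends on each side of the span limit. Other genes were named after their values were seen. Gene lists match symbols by their first letters, and 7 symbols that matched by letters alone were left out after their values had been seen. Of the 940 gene names, 753 are RefSeq symbols (GRCm38.p6), 116 are older names of 1 symbol and 71 have no match.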

Additional observations from a re-analysis of the deposited data

How the results depend on the processing

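With a threshold of 0.4 the number of close ends past it was 85 in place of 36, and with a threshold of 1 it was 0. With all 4 intensities at or above the 25th percentile 12 ends passed 0.5, of 535 left. With the threshold of 0.4 the share past it was 8.48% of close ends, 5.46% of distant ends, 13.1% of alternative starts up to 10 kb and 13.7% of all events, the same order as at 0.5. On chromosome 19 below 15 Mb, which holds 24 close ends, the median absolute shift was 0.0804 in place of 0.176 for the 6 of the interval. The count of 36 became 24 of 801 (3.0%) with intensities at or above the 10th percentile. It became 41 of 1002 (4.09%) with the median shift of all events subtracted. With spans up to 5000 bases it was 25 of 490 (5.1%), a higher share than the 3.59% of all close ends. It was 36 with the inclusion path, with the path of largest shift and with the standard intensities. These settings could hardly move the count. Both paths list the same values mirrored in all 1002 ends, and the standard intensities are identical wherever both are given. With 1 event per gene it was also 36, and the 36 shifted ends lie in 36 genes. Of 43 named ends, 4 crossed -0.5 when the median was subtracted, *4931440B09Rik*, *Trpm1*, *Agbl5* and *Cp*, and none changed sign among those past 0.5.

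No paired analysis was possible because the deposited table holds pooled values with no column per animal; for the same reason leaving out each replicate was not run. The direction towards the nearer or farther end was not run, since both paths carry 1 position. Of the 36 shifted ends, 12 had an intensity below 102, the 10th percentile of the table. How far the signal of any end stands above background is not known.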
